A study of Mus musculus with 12 samples.

Results

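The mitochondrial ribosomal protein genes were followed across 12 Illumina mouse bead arrays of left ventricular cardiomyocytes. Their probes were taken by symbol from the platform annotation, as Mrpl or Mrps followed by a digit without pseudogene symbols. The arrays carried 132 probes for 76 such symbols, and 73 genes with 111 probes were kept because their detection p lay under 0.01 on 3 or more of the 12 arrays, among 8746 named genes kept in the same way. Of the 73 genes 48 encode proteins of the large subunit and 25 proteins of the small subunit.

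Groups of 3 arrays each came from male C57Bl6/J mice, whose age is given as 8 weeks. All were given an adeno-associated virus, AAV9, at 10 days of age, with surgery 2 months later and cells taken at 1 week. The virus carried sh-Uhrf1 #1, a short hairpin RNA against the DNA methylation cofactor Uhrf1 (shUhrf1), or a scrambled hairpin (shControl). Surgery was transverse aortic constriction (TAC), which narrows the aorta and loads the left ventricle with pressure, or a sham operation. The groups were therefore TAC shUhrf1, sham shUhrf1, TAC shControl and sham shControl. Every mouse carried a virus, and the knockdown rested on a single hairpin, so effects of that hairpin outside Uhrf1 cannot be told apart from those of Uhrf1. The design text speaks of 4 samples in triplicate and does not state whether each array stands for an animal of its own, so the p-values speak of the spread among these arrays alone, and that spread may be technical.

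Mitochondria keep a small genome whose messenger RNAs, all of them for subunits of oxidative phosphorylation, are translated inside the organelle by a ribosome of their own. Its ribosomal RNAs are made in the mitochondrion, whereas its proteins are encoded in the nucleus, made in the cytosol and imported. Some of these proteins descend from bacterial ribosomal proteins and others are found only in mitochondria. Cardiomyocytes are packed with mitochondria, and their respiratory chain depends on this ribosome.

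Across the series 12309 to 14908 probes were detected per array, with 14440 to 14908 in TAC shUhrf1, 13113 to 13792 in sham shUhrf1, 13375 to 14544 in TAC shControl and 12309 to 12979 in sham shControl. Uhrf1 itself read 4.68, 5.34 and 6.06 on the log2 scale in TAC shUhrf1 arrays, against 6.14, 7.11 and 6.89 in TAC shControl arrays, a difference of -1.35 ± 0.30 (SE; limma, Benjamini-Hochberg adjusted p = 0.0355), and it was not detected on any sham array. The call was lost in 3 of 8 alternatives, with adjusted p up to 0.112, and in 5 of the 12 fits that left out an array. All 11 measured cardiomyocyte markers, including Myh6, Tnni3 and Ryr2, were detected on all 12 arrays. The number of arrays limits the precision of every value here.

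Of the 73 genes 72 were detected on all 12 arrays. Mrpl45, just inside the threshold, was detected on 4 arrays, 3 of sham shUhrf1 and 1 of sham shControl. Mrpl19, Mrpl32 and Mrps14 lay outside, with no array under the threshold and lowest detection p-values of 0.186, 0.0908 and 0.0833. Their highest raw intensities were 105.8, 107.6 and 108.0.

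In shControl cardiomyocytes the genes of the mitochondrial ribosome were lower after TAC than after sham surgery almost throughout. The median difference over the 73 genes was -0.25 on the log2 scale (quartiles -0.37 and -0.16), against -0.04 over all 8746 genes, and 71 of the 73 differences were negative. By limma with Benjamini-Hochberg adjustment over all 15118 probes 7 genes fell, 9.59% of them, beside 7.47% of all genes. None rose, beside 11.4% of all genes. At an unadjusted p under 0.05 23 of the 73 were lower and 0 higher, beside 1419 and 1536 of all 8746 genes. Mrpl45 was kept only through sham arrays, where it is high, so its fall is tied to the filter, and among the 72 members detected on every array 6 fell, 8.33%, with 70 negative and 40 without overlap. The genes that fell were Mrpl45, Mrpl22, Mrpl14 and Mrpl4 of the large subunit and Mrps16, Mrps21 and Mrps35 of the small subunit. In 41 genes, 56.2%, all 3 TAC arrays lay below all 3 sham arrays, beside 19.3% of all genes. In none of the 73 did they all lie above, beside 1677 of all 8746 genes. The count of 7 changed when single arrays were left out. It was 2, 4 and 1 without sham shControl array 1, 2 and 3. Without TAC shControl array 1, 2 and 3 it was 1, 7 and 1. The share of all genes that fell in those fits was not set beside these counts. The members' median stayed between -0.29 and -0.22 when any array was left out.

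The genes that fell came from both subunits, in shares near the 7.47% of all genes that fell. Of the 48 large subunit genes 4 fell, 8.33%, and 47 had a negative difference, with a median of -0.23. Of the 25 small subunit genes 3 fell, 12%, and 24 were negative, with a median of -0.32. The genes were also split by the number in their symbol, because the lower numbers carry the names of bacterial ribosomal proteins. Of the 41 genes with lower numbers 5 fell, 12.2% (median -0.25), and of the 32 with higher numbers 2 fell, 6.25% (median -0.24). This split only approximates descent.

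**Figure D1:**
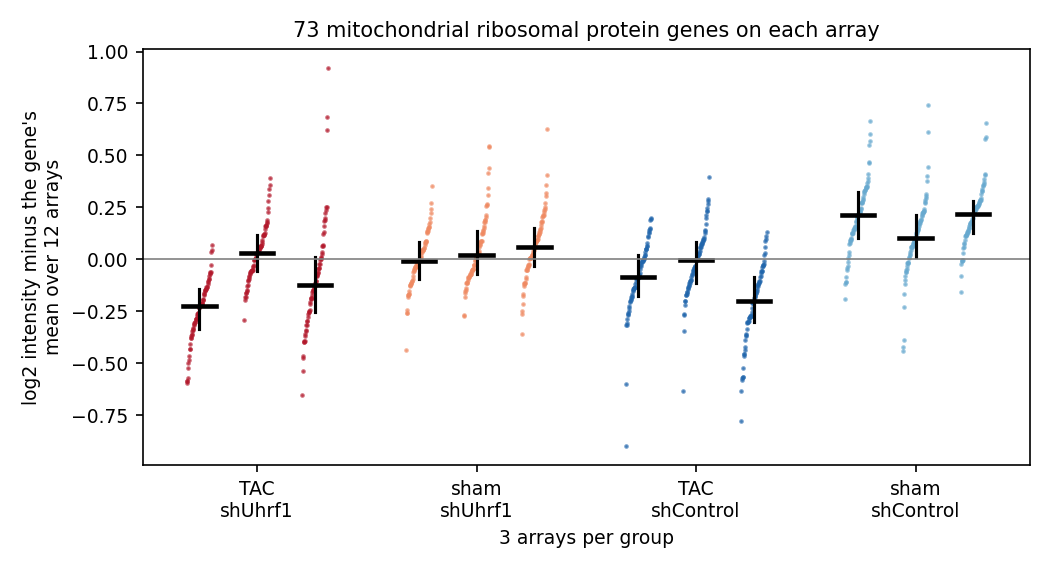
Each point is 1 of the 73 mitochondrial ribosomal protein genes on 1 array, as log2 intensity minus the gene's mean over the 12 arrays. Bars are the array's median and quartiles. The 3 sham shControl arrays have the highest medians, 0.21, 0.10 and 0.22, and the lowest medians belong to TAC shUhrf1 array 1, at -0.23, and TAC shControl array 3, at -0.20.

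The plot of the 73 genes by array shows how they shifted together within an array. Their median deviation was -0.23, 0.03 and -0.12 on the TAC shUhrf1 arrays and -0.01, 0.02 and 0.06 on the sham shUhrf1 arrays. On the TAC shControl arrays it was -0.09, -0.003 and -0.20, against 0.21, 0.10 and 0.22 on the sham shControl arrays. All 3 TAC shControl arrays lay below all 3 sham shControl arrays, whereas the TAC and sham arrays of shUhrf1 overlapped. As group means these were -0.108 ± 0.128 in TAC shUhrf1, 0.024 ± 0.033 in sham shUhrf1, -0.096 ± 0.099 in TAC shControl and 0.178 ± 0.065 in sham shControl (SD, n = 3 arrays).

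Among the large subunit genes, Mrpl22 encodes a protein that lines the exit tunnel for the new polypeptide. It read 9.58, 9.54 and 9.32 in TAC shControl, against 10.18, 9.87 and 10.24 in sham shControl. In shUhrf1 cells it read 9.62, 9.83 and 9.90 after TAC, against 10.11, 10.30 and 10.16 after sham. The TAC arrays lay below the sham arrays under both hairpins without overlap, and the difference was -0.62 ± 0.15 in shControl, 1.53-fold lower (adjusted p = 0.0123), and -0.41 ± 0.15 in shUhrf1 (adjusted p = 0.126). With each array scaled by its median the shUhrf1 difference turned to 0.10.

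Mrpl14 sits at the face of the large subunit that meets the small one. Its TAC shControl arrays read 10.63, 10.91 and 10.61, against 11.49, 10.91 and 11.47 in sham shControl, so that the highest TAC array and the lowest sham array met. The TAC shUhrf1 arrays read 10.42, 10.60 and 10.55, against 10.96, 11.02 and 11.07 in sham shUhrf1, with a clear gap. The differences were -0.58 ± 0.16 in shControl (1.49-fold lower, adjusted p = 0.0298) and -0.50 ± 0.16 in shUhrf1 (adjusted p = 0.0999). Over 9 alternatives of the processing the shUhrf1 difference of Mrpl14 ran from -0.55 to -0.04, with adjusted p from 0.0541 to 0.915.

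Mrpl4, another protein of the exit tunnel, read 9.73, 9.80 and 9.37 in TAC shControl, against 9.997, 10.09 and 10.17 in sham shControl. In shUhrf1 it read 9.65, 9.65 and 9.43 after TAC, against 9.80, 9.93 and 10.04 after sham. Neither pair of groups overlapped, with -0.45 ± 0.15 in shControl (1.37-fold lower, adjusted p = 0.0487) and -0.34 ± 0.15 in shUhrf1 (adjusted p = 0.193).

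Mrpl45, which holds the ribosome at the inner membrane, was near the detection limit. It was undetected on all TAC arrays, where it read 4.583, 4.958 and 5.001 in shUhrf1 and 4.554, 4.519 and 5.001 in shControl. The sham arrays read 5.40, 5.70 and 5.78 in shUhrf1 and 5.28, 5.90 and 5.18 in shControl. TAC and sham did not overlap under either hairpin, which follows in part from how the gene was kept, and without the filter Mrpl45 did not pass. The plain differences were -0.76 ± 0.21 in shControl (adjusted p = 0.0261) and -0.78 ± 0.21 in shUhrf1 (adjusted p = 0.0513). Taken against the lowest detected signal of each TAC array, Mrpl45 was at least 1.54-fold lower after TAC in shUhrf1. In shControl the same reckoning gave 1.25-fold, which is no firm bound, because not every sham shControl array detected the gene. Such bounds replace a plain fold wherever no array of a group detected the gene.

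Of the small subunit, Mrps16 encodes a protein whose loss in human patients impairs mitochondrial translation. It read 10.03, 10.14 and 9.90 in TAC shControl, against 10.65, 10.32 and 10.84 in sham shControl. Those groups did not overlap, and the difference was -0.58 ± 0.16 (1.49-fold lower, adjusted p = 0.0263). In shUhrf1 the TAC arrays read 9.97, 10.13 and 9.79, against 10.01, 10.13 and 10.29 for sham, so the groups overlapped (-0.18 ± 0.16, adjusted p = 0.537). The sham shUhrf1 arrays were already lower than the sham shControl arrays, by -0.46 ± 0.16 (adjusted p = 0.227).

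Mrps21 is a small protein of bacterial descent. It read 11.11, 11.14 and 10.89 in TAC shControl, against 11.63, 11.26 and 11.89 in sham shControl, -0.55 ± 0.16 (1.46-fold lower, adjusted p = 0.0363). In shUhrf1 it read 11.02, 11.15 and 11.29 after TAC, against 11.30, 11.52 and 11.49 after sham, -0.28 ± 0.16 (adjusted p = 0.336). Both pairs were apart, though the highest TAC and the lowest sham array of shUhrf1 nearly met.

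Mrps35, found only in mitochondria, differed most between the hairpins among the 7. It read 9.95, 10.14 and 9.64 in TAC shControl, against 10.54, 10.33 and 10.40 in sham shControl, a gap without overlap of -0.51 ± 0.15 (1.43-fold lower, adjusted p = 0.0368). In shUhrf1 it read 10.12, 10.39 and 10.52 after TAC, against 10.41, 10.40 and 10.42 after sham, where the TAC arrays lay on both sides of the sham arrays (-0.06 ± 0.15, adjusted p = 0.844). The difference between the 2 TAC responses was 0.45 ± 0.22 and did not pass (adjusted p = 0.545).

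**Figure D2:**
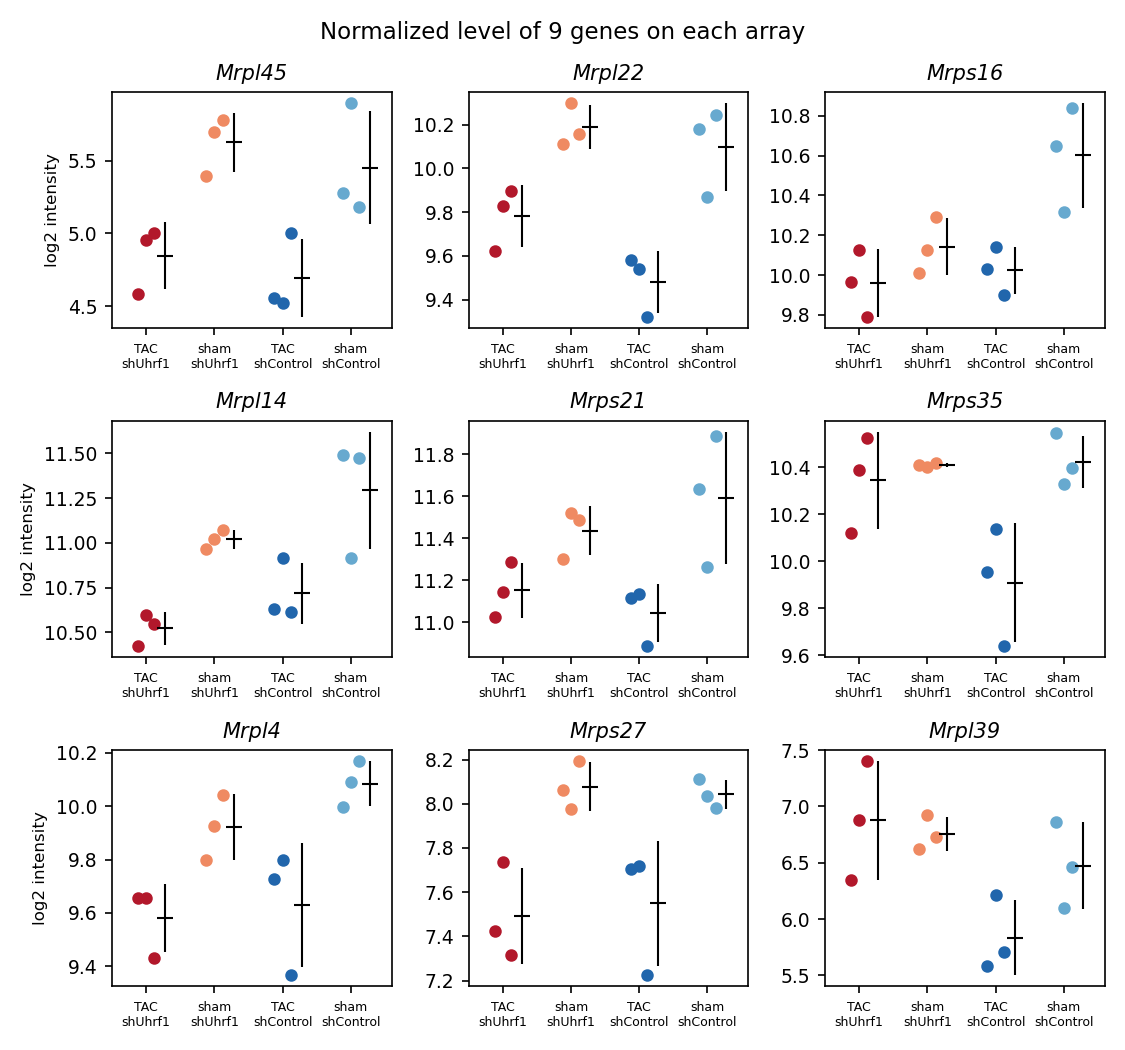
Normalized log2 intensity of 9 genes in TAC shUhrf1, sham shUhrf1, TAC shControl and sham shControl, each panel with its own vertical axis. Points are arrays and the cross beside them is the group mean with the SD of 3 arrays. Mrpl22, Mrpl45 and Mrpl4 have every TAC array below the sham arrays of the same hairpin, Mrps16 and Mrps35 only in shControl, and Mrpl39 has its highest array in TAC shUhrf1.

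Because the members moved together, their promoters were read from RefSeq's table for GRCm38.p6, from 250 bases before to 50 after the annotated start. Of the 73 genes 65 matched, all by gene ID, leaving Mrpl4, Mrpl13, Mrpl15, Mrpl38, Mrpl54, Mrps28, Mrps34 and Mrps35. The letters of 6 words were searched on both strands. The 4 windows below belong to genes that fell after TAC in shControl. They differ in the exact words they hold: Mrpl22 holds the NRF1 and ETS words, Mrps16 the ETS and SP1 words, Mrps21 the ETS and ERR words, and Mrpl45 none of the 6. Variants of a word were not counted, and the Mrpl45 window holds gcacgcgc, which differs from the NRF1 word GCATGCGC in a single letter. Mrpl14, which also fell, held only the SP1 word, and its window is not printed. Capitals mark the matches, and in the Mrps16 window the last ETS and SP1 words overlap. The windows are chr11:58171414-58171713 on the plus strand for Mrpl22, chr14:20393441-20393740 on the minus strand for Mrps16, chr3:95871465-95871764 on the minus strand for Mrps21 and chr11:97315466-97315765 on the plus strand for Mrpl45.
Mrpl22: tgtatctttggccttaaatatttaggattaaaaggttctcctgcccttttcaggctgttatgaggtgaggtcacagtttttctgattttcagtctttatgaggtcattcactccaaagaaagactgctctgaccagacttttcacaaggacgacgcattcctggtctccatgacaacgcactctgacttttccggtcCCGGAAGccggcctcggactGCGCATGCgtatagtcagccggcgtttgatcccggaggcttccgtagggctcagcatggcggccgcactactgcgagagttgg
Mrps16: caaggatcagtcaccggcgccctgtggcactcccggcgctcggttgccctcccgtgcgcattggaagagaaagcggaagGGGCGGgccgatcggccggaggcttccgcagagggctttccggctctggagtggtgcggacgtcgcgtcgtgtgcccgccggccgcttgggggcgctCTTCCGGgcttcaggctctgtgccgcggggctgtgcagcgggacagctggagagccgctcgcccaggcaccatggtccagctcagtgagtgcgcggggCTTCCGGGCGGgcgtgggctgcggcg
Mrps21: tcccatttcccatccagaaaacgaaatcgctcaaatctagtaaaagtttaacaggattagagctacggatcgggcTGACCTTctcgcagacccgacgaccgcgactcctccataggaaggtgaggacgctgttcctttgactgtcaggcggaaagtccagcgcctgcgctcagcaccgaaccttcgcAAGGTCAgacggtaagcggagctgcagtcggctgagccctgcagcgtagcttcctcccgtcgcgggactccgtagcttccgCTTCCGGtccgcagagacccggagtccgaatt
Mrpl45: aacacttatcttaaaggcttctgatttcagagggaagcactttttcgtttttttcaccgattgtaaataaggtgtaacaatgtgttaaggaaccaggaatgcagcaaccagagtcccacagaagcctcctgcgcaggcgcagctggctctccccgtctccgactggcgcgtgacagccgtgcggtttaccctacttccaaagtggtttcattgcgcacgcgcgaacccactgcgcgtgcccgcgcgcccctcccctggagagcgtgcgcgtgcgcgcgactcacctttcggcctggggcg

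The ETS word CCGGAAG, the core bound by GABP, a factor of many nuclear genes for mitochondria, stood in 25 of the 65 windows, 38.5%, against 9.12% of the 27025 promoters in the table. YY1's AAGATGGC was in 11 windows, 16.9% against 2.88%, and NRF1's GCATGCGC in 7, 10.8% against 2.80%. At least 1 of these 3 words was present in 36 windows, 55.4%, against 13.8% of all promoters. For the ERR word AAGGTCA the shares were 6.15% and 4.66%, for the E-box CACGTG 7.69% and 7.24%, and for the SP1 word GGGCGG 47.7% and 35.9%. The windows were also richer in GC, with a median of 58.3% against 52.7%, and in CpG, with a median of 21 against 7 dinucleotides. These were not matched in the comparison, which took every gene's promoter in the table and not only those of genes detected here. A match describes letters and no binding site was measured. The median TAC difference in shControl was -0.26 in the 25 genes with the ETS word and -0.25 in the 40 without it, with 3 and 2 genes that fell. It was -0.19 with and -0.25 without the NRF1 word, -0.25 and -0.25 for YY1, -0.29 and -0.25 for ERR, -0.23 and -0.25 for the E-box, and -0.32 and -0.23 for SP1. None of these differences was tested.

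A start within 1000 bases of an opposite-strand neighbour was found for 23 of the 65 genes, 35.4%, against 10.5% of all promoters, detected here or not. The median TAC difference in shControl was -0.33 in these 23 and -0.24 in the other 42. Mrpl46 and Mrps11, of the large and the small subunit, start 42 bases apart. Mrpl46 read 10.28, 10.50 and 10.16 in TAC shControl, against 10.68, 10.67 and 10.68 in sham shControl, and its groups did not overlap (-0.37 ± 0.16, adjusted p = 0.134). Mrps11 read 8.73, 9.09 and 8.52 in TAC shControl, against 9.29, 8.99 and 9.23 in sham shControl, and its groups overlapped (-0.39 ± 0.20, adjusted p = 0.185). Mrps12, of the decoding centre, starts 147 bases from Sars2, which charges serine onto mitochondrial tRNA, and their differences were -0.37 ± 0.14 (adjusted p = 0.0981) and -0.27 (adjusted p = 0.465). Of the 14 such neighbours measured, which include Mrpl46 and Mrps11 themselves, 1 rose after TAC in shControl, beside 11.4% of all genes. This was Mitd1 beside Mrpl30, by 0.92 (adjusted p = 0.00273). In the same comparison 2 fell, beside 7.47% of all genes, Cyb5rl beside Mrpl37 and Gga3 beside Mrps7, with -0.72 (adjusted p = 0.0277) and -0.61 (adjusted p = 0.0418). In shUhrf1 Tmem63b beside Mrpl14 passed, with -0.54 (adjusted p = 0.03955), beside 1.59% of all genes that fell.

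Several members with roles of their own did not pass in the same comparison. Mrpl12, which forms the stalk of the large subunit and in human cells also binds the mitochondrial RNA polymerase, read 11.98, 12.36 and 12.01 in TAC shControl, against 12.22, 12.13 and 12.35 in sham shControl. Its groups overlapped (-0.12 ± 0.15, adjusted p = 0.644). The paralogs Mrps18a, Mrps18b and Mrps18c, descended from the same bacterial protein, had differences of -0.08 ± 0.12, -0.22 ± 0.14 and -0.33 ± 0.16 (adjusted p = 0.713, 0.295 and 0.188). Mrps30, a mitochondria-specific protein now placed in the large subunit, had -0.19 ± 0.11 (adjusted p = 0.273). The positive differences were those of Mrpl33, 0.14 (adjusted p = 0.498), and Mrps23, 0.01.

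Each gene above was read from its brightest kept probe. Over all 111 kept probes 105 were lower after TAC in shControl, 15 fell, beside 7.77% of all 15118 kept probes, and 0 rose, beside 9.69%. The 15 belonged to 13 genes. Beyond the 7 genes these were probes of Mrpl15, Mrpl49, Mrpl51, Mrps25, Mrps33 and Mrps7. Mrps25 had probes that fell by 0.71 and 0.74 (adjusted p = 0.0339 and 0.0170), while its brightest probe had -0.51 (adjusted p = 0.0886). Of the 26 genes with several kept probes 22 had all of them on the same side of 0, 21 of these below it. Mrpl51 was not among them, with a probe at -0.92 (adjusted p = 0.0341) and another at 0.43 (adjusted p = 0.445).

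In shUhrf1 cardiomyocytes no member passed in the TAC against sham comparison by limma, beside 3.96% of all genes that rose and 1.59% that fell. At an unadjusted p under 0.05 9 of 73 members were lower and 0 higher, beside 820 and 1149 of all 8746 genes. The median difference was -0.14, against 0.01 over all genes, with 54 of 73 negative, but with each array scaled by its median it turned to 0.34, against 0.45 over all genes, with 70 positive. Without TAC shUhrf1 array 1 the median was -0.07. All 3 TAC arrays lay below all 3 sham arrays in 19 members, 26.0%, beside 13.2% of all genes. They lay above in 1 member, Mrpl54, beside 1362 of all 8746 genes. The members nearest to the threshold were Mrpl45, given above, and Mrps27, a small subunit protein with pentatricopeptide repeats that bind RNA.

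Mrps27 read 7.43, 7.74 and 7.31 in TAC shUhrf1, against 8.06, 7.98 and 8.19 in sham shUhrf1. In shControl it read 7.71, 7.72 and 7.22 after TAC, against 8.11, 8.03 and 7.98 after sham. The TAC arrays were below the sham arrays in both pairs without overlap, and the differences were -0.59 ± 0.16 (adjusted p = 0.0575) and -0.49 ± 0.16 (adjusted p = 0.0537). Over 9 alternatives of the processing the shUhrf1 difference of Mrps27 ran from -0.59 to -0.07. Its adjusted p ran from 0.0338 to 0.809, and it passed in 4 of the 9. Mrpl10, which anchors the stalk, and Mrpl3 came next, with -0.37 ± 0.14 (adjusted p = 0.143) and -0.31 ± 0.13 (adjusted p = 0.190), and both turned positive under median scaling, to 0.10 and 0.15.

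**Figure D3:**
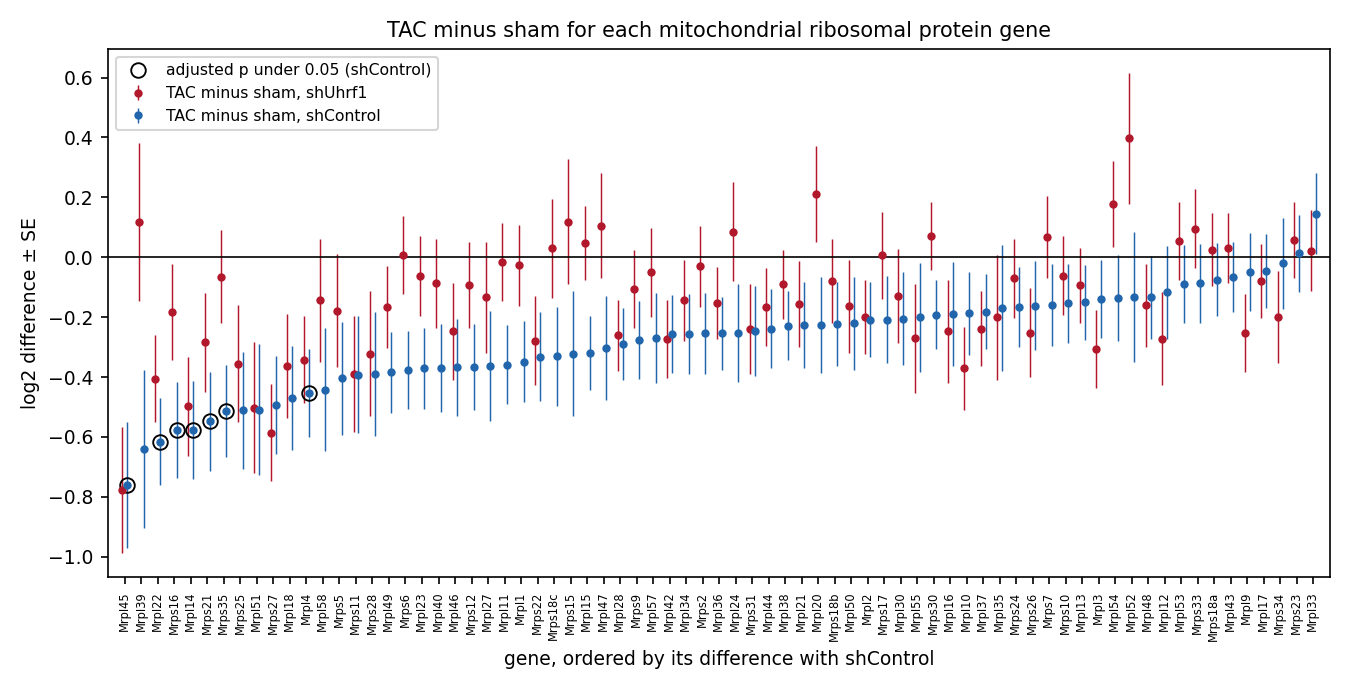
TAC minus sham log2 difference ± SE of each of the 73 genes, in shUhrf1 and in shControl cells, ordered by the shControl difference. Open circles mark the 7 genes with an adjusted p under 0.05 in shControl. In shUhrf1 54 differences lie below 0 and in shControl 71, and with each array scaled by its median 70 of the shUhrf1 differences lie above 0.

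The 2 TAC comparisons share no array, so their directions can be set side by side. In 54 of 73 members, 74.0%, both differences were negative, against 37.3% of all genes, and 17 were negative in shControl alone. With each array scaled by its median this count was 3 of 73, 4.11%, against 5.48% of all genes, because most shUhrf1 differences turned positive. In the quantile-normalized values all 3 TAC arrays lay below the sham arrays under both hairpins in 14 members, 19.2%, beside 6.55% of all genes. These were Mrpl2, Mrpl4, Mrpl14, Mrpl22, Mrpl28, Mrpl36, Mrpl37, Mrpl42, Mrpl45, Mrpl49, Mrpl51, Mrps21, Mrps22 and Mrps27, which are 13 without Mrpl45. The shUhrf1 difference lay above the shControl difference in 57 members, 78.1%, and in 54.5% of all genes, and under median scaling in 72 and in 74.4%.

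The plot of TAC differences gene by gene shows the shUhrf1 points mostly above the shControl points. The median of the difference between the responses, shUhrf1 minus shControl, was 0.11, against 0.03 over all genes. It moved to 0.53 under median scaling and 0.30 with scaling to the probes detected on all arrays, against 0.26 and 0.03 over all genes. Among fits without 1 array it was 0.07 without TAC shUhrf1 array 2 or TAC shControl array 3, and 0.18 and 0.17 without TAC shUhrf1 array 1 and TAC shControl array 2. No member passed the test of that difference in limma, beside 0% of all genes in either direction. With an unadjusted p under 0.05 there were 0 members, beside 402 higher and 464 lower of all 8746 genes. The largest, 0.76 ± 0.37, was that of Mrpl39 (adjusted p = 0.553), a mitochondria-specific relative of threonyl-tRNA synthetases. The other members with the smallest p were Mrpl20, Mrps6, Mrpl15 and Mrpl11, with 0.44, 0.39, 0.37 and 0.34, beside the 0.45 of Mrps35 (adjusted p from 0.539 to 0.590). They are not the next in size, as Mrpl52 had 0.53 (adjusted p = 0.618). A smaller response to TAC in shUhrf1 was therefore not shown for any single gene.

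Under sham surgery, shUhrf1 cells had lower levels of most members than shControl cells, with a median of -0.16 against -0.003 over all genes and 60 of 73 negative. None passed by limma, beside 0.0457% of all genes that rose and 0% that fell. At an unadjusted p under 0.05 11 were lower and 0 higher, beside 588 and 566 of all 8746 genes. The shUhrf1 arrays lay entirely below the shControl arrays in 30 members, 41.1%, beside 10.4% of all genes. They lay entirely above in 2, Mrpl37 and Mrpl50, beside 894 of all 8746 genes. This comparison uses the same sham shControl arrays as the TAC comparison in shControl, so that a high reading on those arrays enters both.

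Mrpl34 had the smallest p after Mrps16 in that comparison. It read 10.20, 10.43 and 10.48 in sham shUhrf1, against 10.85, 10.55 and 10.85 in sham shControl, without overlap (-0.38 ± 0.13, adjusted p = 0.233). Mrpl2, a core protein near the peptidyl transferase centre, read 10.81, 10.83 and 10.86 in sham shUhrf1, against 11.18, 11.13 and 11.23 in sham shControl, also without overlap (-0.35 ± 0.12, adjusted p = 0.241). Mrps10, Mrpl11 and Mrpl13 had -0.36, -0.35 and -0.32 (adjusted p = 0.248, 0.251 and 0.276), and Mrpl13 turned to 0.11 when its probes were averaged.

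After TAC the 2 hairpins did not separate the members as a group. The median was -0.006, against 0.01 over all genes, with 35 positive and 38 negative, and under median scaling it turned to 0.33, against 0.28 over all genes. None passed by limma, beside 1.53% of all genes that rose and 1.36% that fell. At an unadjusted p under 0.05 4 were higher and 3 lower, beside 932 and 760 of all 8746 genes. The shUhrf1 arrays lay above the shControl arrays in 7 members, 9.59%, beside 13.2% of all genes, and below them in 9, 12.3%, beside 10.7% of all genes.

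Mrpl39 came nearest. It read 6.34, 6.88 and 7.41 in TAC shUhrf1, against 5.58, 6.22 and 5.71 in TAC shControl, so every shUhrf1 array was higher, by 1.04 ± 0.26 on average (adjusted p = 0.0529). The sham arrays read 6.62, 6.92 and 6.73 in shUhrf1 and 6.86, 6.10 and 6.46 in shControl, which overlapped. Mrps15 was higher in each TAC shUhrf1 array, with 8.66, 9.04 and 9.48 against 8.48, 8.53 and 8.27 in TAC shControl (0.63 ± 0.21, adjusted p = 0.119), and its second probe rose by 0.86 (adjusted p = 0.0336), beside 1.84% of all kept probes that rose. A dimmer probe of Mrpl18 also rose, by 1.17 (adjusted p = 0.0301), while the brighter one had -0.14 (adjusted p = 0.713). In the other direction, Mrps34 read 11.21, 11.56 and 11.10 in TAC shUhrf1, against 11.71, 11.96 and 11.53 in TAC shControl, with overlap (-0.44 ± 0.15, adjusted p = 0.133). Mrpl2 had -0.34 ± 0.12 (adjusted p = 0.158), which turned to 0.03 under median scaling.

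Taken by group means, sham shControl had the highest level in 54 of 73 members, 74.0%, and in 29.0% of all genes. The lowest level was in TAC shUhrf1 for 33 members, 45.2%, beside 21.7% of all genes. For another 33, 45.2%, it was in TAC shControl, beside 30.8% of all genes. These counts hold for the quantile-normalized values. With each array scaled by its median, TAC shUhrf1 lay above TAC shControl in 72 members and above sham shUhrf1 in 70. In the quantile-normalized values sham shUhrf1 was highest in 9 members, 12.3%, beside 21.7% of all genes. It was lowest in 6, 8.22%, beside 22.4%.

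Some partners of the ribosome in making mitochondrial proteins also fell after TAC in shControl, and the counts below stand beside the 7.47% of all genes that fell. Of 14 measured translation factors 2 fell, with a median of -0.32. They were Taco1, an activator of translation of a cytochrome oxidase subunit, and Mtrf1, a release factor, with -0.62 ± 0.16 (adjusted p = 0.0200). Taco1 read 4.86, 5.23 and 5.05 in TAC shControl, against 6.002, 6.038 and 5.973 in sham shControl, and 5.33, 5.61 and 5.41 in TAC shUhrf1, against 5.52, 5.72 and 5.48 in sham shUhrf1. The shControl groups were far apart, with -0.96 ± 0.14 (adjusted p = 0.00106), and the shUhrf1 groups overlapped, with -0.13 ± 0.14 (adjusted p = 0.637). The lowest detected signals of the arrays run from 4.97 to 5.45, so Taco1 read near that floor in TAC shControl, which limits the size given. The difference between the TAC responses of Taco1 was 0.83 (adjusted p = 0.213).

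Of 16 measured aminoacyl-tRNA synthetases and amidotransferase subunits 4 fell in shControl, with a median of -0.37. These were Gatb, of the enzyme that completes glutaminyl-tRNA, Tars2, Ears2 and Mars2, with -0.63, -0.55, -0.48 and -0.51 (adjusted p from 0.0161 to 0.0486). Gatb also fell in shUhrf1, by 0.75 (adjusted p = 0.0201). Of 19 genes for ribosome assembly and ribosomal RNA modification 5 fell in shControl, Mettl17, Tfb1m, Mtg1, Rbfa and Rpusd4, with a list median of -0.26. Mettl17 read 7.10, 7.18 and 6.98 in TAC shControl, against 7.76, 8.02 and 8.03 in sham shControl, a wide gap (-0.85 ± 0.14, adjusted p = 0.00186). In shUhrf1 none of these 19 passed.

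Genes for transcription, processing and replication of mitochondrial DNA had a median of -0.39 in shControl, and 2 of 16 fell. Twnk, the helicase of mitochondrial DNA replication, read 6.75, 6.79 and 6.42 in TAC shControl, against 7.59, 7.19 and 7.45 in sham shControl, without overlap (-0.75 ± 0.17, adjusted p = 0.00908). Mterf1b was the other, with -0.58 (adjusted p = 0.0274). Of 11 measured transcriptional regulators of mitochondrial biogenesis 3 fell in shControl. They were Gabpa and Gabpb2, subunits of GABP, with -0.56 ± 0.18 (adjusted p = 0.0484) and a fall of at least 1.37-fold (adjusted p = 0.0136), and Esrrg, an estrogen-related nuclear receptor, with -0.51 ± 0.16 (adjusted p = 0.0445). Nrf1, Esrra, Tfam, Ppargc1a and Ppargc1b had -0.09, -0.30, -0.28, 0.41 and -0.004, with adjusted p from 0.188 to 0.992.

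The matrix chaperones and proteases had a median of -0.20, with 1 of 11 that fell, Hspe1 (-0.77 ± 0.19, adjusted p = 0.0149). Of 33 measured nuclear complex I subunits, whose mitochondrially encoded partners this ribosome makes, 1 fell, Ndufa12 (-0.44 ± 0.14, adjusted p = 0.0458), and the median was -0.18. The 8 measured genes of the mitochondrial genome itself had a median of -0.004 in shControl, with none called, and -0.39 in shUhrf1, again with none called. The 58 cytosolic ribosomal protein genes had a median of 0.06 in shControl, with 1 that rose and 2 that fell, and this turned to -0.01 under median scaling. Under sham surgery they had -0.17 between the hairpins, close to the -0.16 of the mitochondrial ribosomal proteins, with 49 of 58 negative. No test was made between lists.

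**Figure D4:**
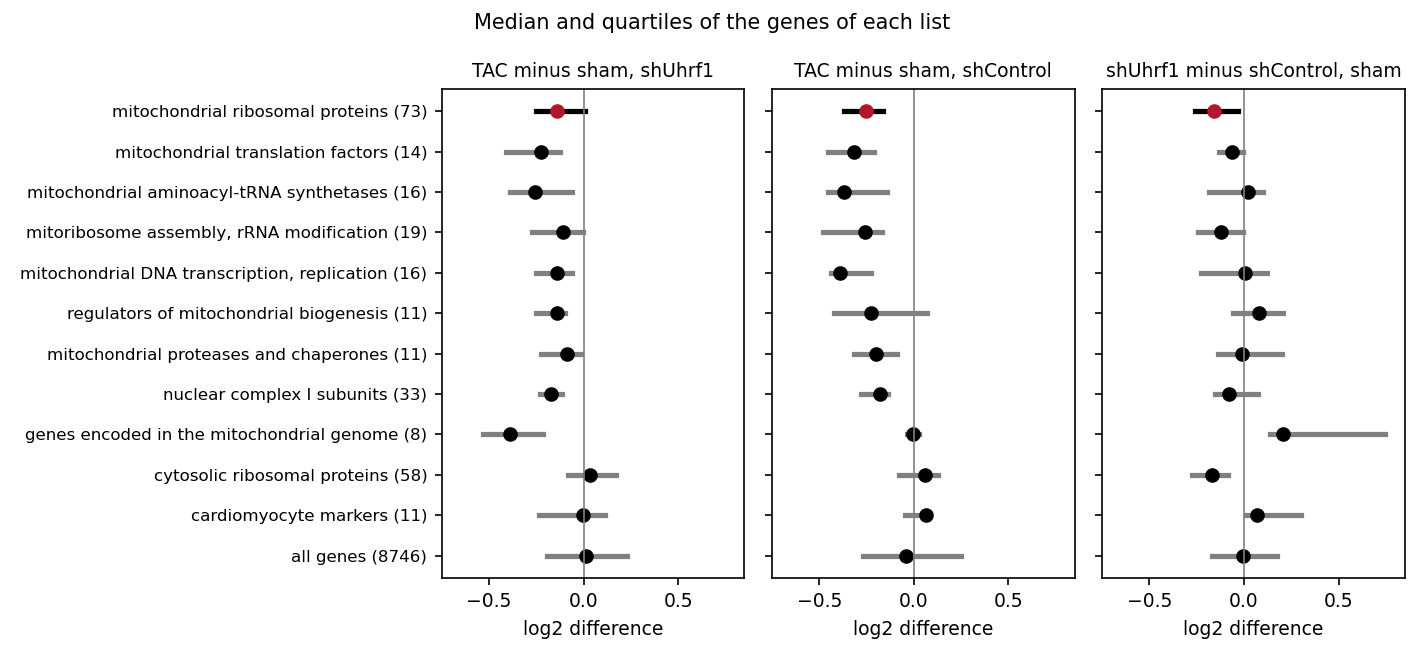
Median (point) and quartiles (bar) of the log2 differences of each gene list, with the number of measured genes in brackets, for TAC minus sham in shUhrf1 and in shControl and for shUhrf1 minus shControl in sham. In shControl the lists of translation factors, synthetases, assembly, mitochondrial DNA genes and regulators have medians from -0.39 to -0.23 and keep that sign under median scaling, whereas cytosolic ribosomal proteins lie at 0.06, which turns to -0.01, and in shUhrf1 the members' -0.14 turns to 0.34.

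The members' direction was set against the way the arrays were scaled. Median scaling put the median of all genes at 0.45 for TAC in shUhrf1, 0.19 for TAC in shControl and 0.28 for shUhrf1 after TAC, in place of 0.01, -0.04 and 0.01. Relative to all genes the members stood at -0.37 for TAC in shControl under that scaling, against -0.21 in the quantile-normalized values. For TAC in shUhrf1 they stood at -0.11 against -0.15, and for shUhrf1 in sham at -0.24 against -0.16. After TAC the sign relative to all genes was 0.05 against -0.02. In the medians by scaling the members lie below all genes in the first 3 of these comparisons under each of the 5 settings drawn. The count of members that fell in shControl ran from 0 under median scaling to 28 with scaling to the probes detected on all arrays. The share of all genes that fell under each scaling was not set beside this range.

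**Figure D5:**
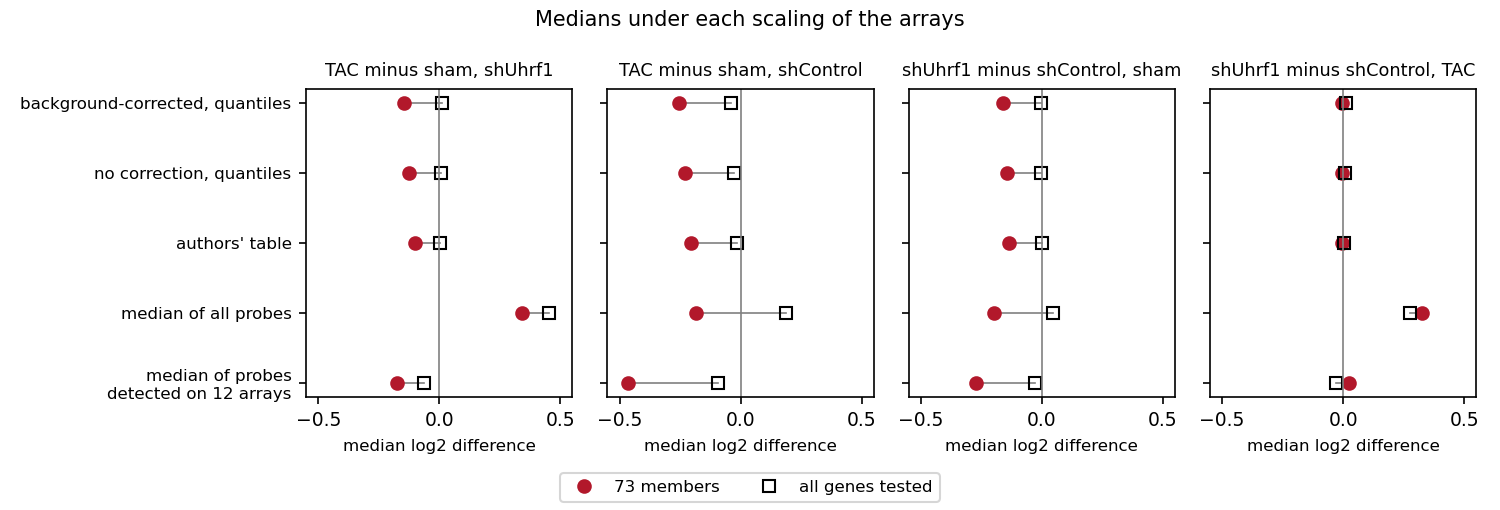
Median log2 difference of the 73 genes (filled) and of all genes tested (open) under 5 ways of scaling, in 4 panels for TAC minus sham in shUhrf1 and in shControl and for shUhrf1 minus shControl in sham and after TAC. Median scaling moves the shUhrf1 TAC median to 0.34 and the median after TAC to 0.33. The members stay below all genes in the first 3 panels.

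Markers of other cell types moved with the surgery in shControl. The counts of markers that rose in the quantile-normalized values stand beside 11.4% of all genes that rose in shControl and 3.96% in shUhrf1. Of 11 measured fibroblast markers 10 rose, with a median of 1.74 and a summed level of 8690.5 to 11641.3 in TAC shControl, against 2688.9 to 4333.4 in sham shControl. Of 11 endothelial markers 9 rose, with a median of 1.47 and sums of 4598.6 to 8930.8 in TAC shControl, against 1921.9 to 2433.9 in sham shControl. In shUhrf1 5 fibroblast markers rose (median 0.91), with sums of 6307.0 to 10972.0 after TAC, against 2093.9 to 6024.5 after sham. There 1 endothelial marker rose (median 0.08), and the sums overlapped, at 2399.2 to 3195.1 after TAC, against 1276.9 to 3778.3 after sham. Of 11 macrophage markers 4 rose in shUhrf1 and 3 in shControl. No cardiomyocyte marker passed in either comparison, but with scaling to the probes detected on all arrays 3 of the 11 fell in shUhrf1 and 1 in shControl, and 1 rose in shControl in the authors' table, where 1 rose and 2 fell in shUhrf1. Relative to all genes their median was -0.02 in shUhrf1 and 0.10 in shControl, which turned to -0.33 and -0.27 under median scaling. Their sums were 162236.5 to 188508.9 in TAC shUhrf1, against 188956.1 to 190515.0 in sham shUhrf1, and 178136.8 to 183270.7 in TAC shControl, against 171704.6 to 180021.7 in sham shControl. These are preparations of many cells, in which fewer cells of a type and less RNA per cell cannot be told apart, and the part of the other cell types in the members' lower levels was not tested.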

How the data were processed

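RNA of the 12 samples was labelled with biotin and read on Illumina bead arrays, per the labels. The authors deposited intensity values before normalization and, as the file headers name them, detection p-values, both by probe and array. The authors' value table holds log2 values, for which the submitters' processing notes name lumi, and served as an alternative. Arrays were grouped by their titles, 3 per group.

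The intensities were background-corrected from the detection p-values and quantile-normalized with neqc of limma 3.58.1 in R 4.3.3 (offset 16). A probe was kept where its detection p was under 0.01 on 3 or more arrays, which held for 15118 of 45281. Of all probes 34885 had 1 symbol, 18 several and 10378 none, and only the first were named. A gene was read from its kept probe with the highest mean. limma's lmFit and eBayes used all 12 arrays and a mean for each group, and p-values were adjusted by Benjamini-Hochberg over all probes kept. A gene rose or fell at an adjusted p under 0.05, in 5 comparisons. A bound ("at least") applies where no array of a group detected the gene. On each array of that group it sets the gene to the dimmest detected signal, or to its own signal if that is higher. The other group keeps its own signals, detected or not. An adjusted p beside a bound is that of the plain difference. Differences are log2 values ± SE unless an SD is named.

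The members and gene lists were chosen with earlier results of these data known, so no list was tested as a set. Genes named are those that passed, otherwise the 6 with the smallest p in a comparison, 8 fixed members (Mrpl12, Mrps12, Mrps18a, Mrps18b, Mrps18c and Mrps30, with Mrps36 and Mrpl41 not analysed here), members beside the detection threshold or with probes that disagree, and up to 4 genes of each other list by smallest p. Mrpl46, Mrps11, Mrpl33, Mrps23, Mrps33, Mrpl18 and the neighbours of promoters, with Rpusd4, Nrf1, Esrra, Tfam, Ppargc1a and Ppargc1b, were named after their values were seen. Mrps18a and Mrps30 were counted with the large subunit. Promoters came from RefSeq's table for GRCm38.p6, and where a member had several rows (3 genes) the first was used.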

Additional observations from a re-analysis of the deposited data

How the results depend on the processing

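Among 9 alternatives the count of members that fell after TAC in shControl, 7, became 16 without background correction, 28 with scaling to the probes detected on all 12 arrays, 19 in the authors' table and 11 with a gene's probes averaged, and it became 0 with median scaling and 1 when only the 2 groups compared were fitted. Without a filter it was 5 and with probes detected on all arrays 8. For TAC in shUhrf1 the count, 0, became 1 without background correction, 1 with scaling to detected probes, 2 in the authors' table, 1 with probes detected on all arrays, 2 with probes averaged and 3, all higher, with median scaling. For shUhrf1 after TAC it became 1 with median scaling, 2 in the authors' table, 1 with probes detected on all arrays and 1 with probes averaged. For shUhrf1 in sham it was 0 in all 9. The share of all genes called under each alternative was not set beside these counts, so they do not show a change particular to the members. With median scaling the medians of TAC in shUhrf1 and of shUhrf1 after TAC turned to 0.34 and 0.33, and the difference between the responses moved to 0.53. Scaling to detected probes gave -0.47 for TAC in shControl, -0.27 for shUhrf1 in sham and 0.30 for the difference between the responses. Median scaling turned the sign of 51 members for TAC in shUhrf1, 37 for shUhrf1 after TAC and 8 for TAC in shControl. Among the genes named by rule these included Mrpl22, Mrpl10 and Mrpl3 for TAC in shUhrf1 (0.10, 0.10 and 0.15) and Mrpl2 for shUhrf1 after TAC (0.027), and Mrpl13 in sham turned to 0.11 with probes averaged. Uhrf1 after TAC no longer passed in the authors' table (-0.33, adjusted p = 0.0509), without a filter (-1.35, adjusted p = 0.112) and with 2 groups fitted (-1.35, adjusted p = 0.0676). The cause of these shifts was not tested.

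With each of the 12 arrays left out in turn the count for TAC in shControl ran from 1 to 8, for TAC in shUhrf1 from 0 to 2, for shUhrf1 after TAC from 0 to 1, and stayed at 0 for shUhrf1 in sham and for the difference between the responses. The share of all genes called in these fits was not set beside these counts. The medians ran from -0.29 to -0.22, from -0.20 to -0.07, from -0.09 to 0.03, from -0.18 to -0.14 and from 0.07 to 0.18 in the same order, and Uhrf1 from -1.71 to -1.01, passing in 7 of 12. Same-numbered arrays of the groups compared did not all deviate together (correlations from -0.107 to 0.275), so the numbers were not read as pairs. With the replicate number as a block 4 members fell for TAC in shControl, all among the 7, and 1 passed for TAC in shUhrf1. A slide block was not run, because the headers give no slides. The dimmest genes are limited by signal over background: Mrpl45 is a bound in shUhrf1 and no firm bound in shControl, and Taco1 in TAC shControl read near the lowest detected signal.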
